A study of Mus musculus with 7 samples.

Results

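The genes of the cytosolic ribosomal proteins were described in bulk RNA-seq libraries from mouse brain. Members were taken by name: symbols that start with Rpl or Rps and a digit, and Rplp0, Rplp1 and Rplp2, leaving out pseudogenes named with -ps, the Rps6k kinases and names ending in os. The rule gave 93 of the 55367 genes in the table, of which 55 carry names of the large subunit and 38 names of the small subunit. The 4 libraries labelled CRS and the 3 labelled noCRS all came from C57BL/6J mice, from brain labelled P90. Every library is labelled as total RNA of mPFC-LHB projection neurons, which are cells of the medial prefrontal cortex that send axons to the lateral habenula. The labels do not spell out CRS. The series title speaks of chronic stress and depression, and CRS against noCRS is the 1 contrast that the design text names. Nothing says whether each library is a separate animal or a pool, or how the neurons were marked and collected, so the p-values below speak of the spread among these 7 libraries, part of which may be technical.

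The cytosolic ribosome reads mRNA in a small subunit and joins amino acids in a large subunit, and each of its proteins is normally present once, or in a few copies at the stalk. Ribosomal protein mRNAs of vertebrates carry a run of pyrimidines at their very start, the terminal oligopyrimidine or TOP motif, through which the kinase mTOR and the RNA-binding protein Larp1 set how far they are translated. In neurons ribosomes work in the cell body and also in dendrites and axons, where local translation serves synaptic plasticity. Ribosomal protein genes have many processed copies in mammalian genomes, so that a short read can match several places.

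The starts of 5 members that the results below turn on are shown, to let a reader see whether and where a run of pyrimidines lies near the start. Each line gives 60 bases of RefSeq sequence on GRCm38.p6, 30 before the annotated start and 30 from it on, 5′ to 3′ on the transcript's strand. Capitals mark a C followed by at least 7 further pyrimidines, C or T. A tract was found near the starts of Rpl13 (chr8:123102320-123102379, plus strand), Rpl19 (chr11:98026894-98026953, plus strand) and Rpl15 (chr14:18270957-18271016, minus strand). It reaches past the annotated start in Rpl15, while in Rpl13 and Rpl19 it lies wholly before it and so outside the annotated transcript. None was found at those of Rps3 (chr7:99483680-99483739, minus strand) and Rpl23 (chr11:97782410-97782469, minus strand). Another annotated start of Rpl19, given below and not shown, has no tract either.
Rpl13: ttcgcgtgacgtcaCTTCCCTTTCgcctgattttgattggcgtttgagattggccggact
Rpl19: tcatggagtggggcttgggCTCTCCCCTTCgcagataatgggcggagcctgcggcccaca
Rpl15: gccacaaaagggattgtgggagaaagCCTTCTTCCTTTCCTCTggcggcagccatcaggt
Rps3: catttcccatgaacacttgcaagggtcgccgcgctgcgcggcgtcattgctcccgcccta
Rpl23: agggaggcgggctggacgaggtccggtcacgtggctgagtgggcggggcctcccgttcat

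Of the 93 members, 68 were in the RefSeq promoter set and had at least 1 annotated start, and 80 starts in all. A tract lay within 30 bases of the start in 38 of these 80 windows, or 47.5%, against 18.2% of all 32851 windows of that set. It reached into the transcript in 28 of the 80 windows, or 35.0%, against 9.7% of all windows. Counted by gene, 36 of 68 members, or 52.9%, held one, against 20.6% of 27025 genes. The share was 54.8% in the large subunit, 23 of 42 genes, and 50% in the small subunit, 13 of 26 genes. The other annotated start of Rpl19, at chr11:98026680-98026739, is without a tract, and the gene start in the count table falls in that window. The 8 letters CCGGAAGT, bound by ETS factors such as Gabpa, were searched on both strands in the whole 300 bases of each window. They were found in 11 of 80 windows, or 13.8%, against 3.9% of all windows. Their leading CC can be the end of a pyrimidine tract, and other overlaps of the motifs are not possible. A match is a description of the letters and no evidence of use, and the annotated start may not be the one used in these cells.

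Library totals ran from 28677703 to 39965667 counts, and members took 0.466% to 0.704% of them. Levels below are CPM, the usual unit of counts relative to the total of a library, scaled with edgeR's TMM factors, and a floor of 3 counts in 1 library stands at 0.0724 to 0.0990 CPM. The libraries differed in markers of cell types. Summed over 8 excitatory neuron markers, CRS libraries had 2574 to 4097 CPM and noCRS libraries 123 to 256 CPM, and 4 of the 8 rose in CRS by edgeR's adjusted p. Slc17a7, Neurod2 and Tbr1 had 0 counts in at least 1 noCRS library, and all 8 were detected in every CRS library. Of 5 tested inhibitory markers 2 rose. Over all 6 listed inhibitory markers the sums were 150 to 661 CPM in CRS and 34.6 to 37.5 CPM in noCRS. Slc32a1 had 0 counts in all 3 noCRS libraries. Over 8 pan-neuronal markers the sums were 884 to 1284 CPM in CRS and 324 to 383 CPM in noCRS, with 3 of 8 past the threshold. Markers of oligodendrocyte precursors summed to 1256 to 1711 CPM in CRS and 2194 to 2612 CPM in noCRS, and 4 of 8 fell. None of the 8 astrocyte markers passed, with sums of 6342 to 12937 CPM in CRS and 10772 to 14032 CPM in noCRS. The same held for 8 oligodendrocyte markers, at 26349 to 51907 CPM in CRS and 32002 to 36987 CPM in noCRS, and for the microglial and the endothelial and mural lists. The part of these differences in the ribosomal values below was not tested. In bulk RNA, fewer cells of a type and less RNA per cell cannot be told apart.

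No ribosomal protein gene passed the test between CRS and noCRS. Of 88 members with enough counts to be tested, 0 passed edgeR's quasi-likelihood test at an adjusted p under 0.05, against 2.30% of all 17833 tested genes (2.07% higher and 0.230% lower in CRS). At an unadjusted p under 0.05 there were 6 members, 5 higher in CRS (Rps3, Rpl19, Rpl3, Rpl23 and Rplp1) and 1 lower (Rpl13). Among all genes 9.67% were higher and 3.91% lower at that level, so that both counts of members lie under the background. DESeq2 called 3 of 87 members, Rps3 and Rpl19 higher and Rpl13 lower, against 9.14% of all genes, and limma-voom with quality weights called 0, against 3.58% of all genes. Groups did not overlap in 7 members with higher CRS levels and in 1 with lower CRS levels, against 10.1% and 6.74% of all genes, or 16.9% in either direction, so that these shares too lie under the background. The other 5 members, Rps12l1, Rps23rg1, Rpl10l, Rpl39l and Rpl3l, had too few counts to be tested.

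The summed large subunit had 3606, 4140, 4067 and 3912 CPM in CRS libraries 1 to 4, and 2819, 4063 and 3609 CPM in noCRS libraries 1 to 3. The groups overlapped, since noCRS-2 stood among the CRS libraries and noCRS-1 stood alone at the bottom. The means were 3932 ± 237 CPM in CRS (SD, n = 4) and 3497 ± 629 CPM in noCRS (SD, n = 3), a difference of 434.6 CPM or 12.4%. The summed small subunit had 2237, 2413, 2468 and 2245 CPM in the CRS libraries, and 1672, 2422 and 2097 CPM in the noCRS libraries. The same libraries were highest and lowest within noCRS as for the large subunit. The means were 2341 ± 117 CPM in CRS and 2064 ± 376 CPM in noCRS, a difference of 276.8 CPM or 13.4%. Both differences are smaller than the SD of the noCRS libraries.

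The proportion of large to small subunit differed between CRS and noCRS by less than the spread of the libraries. The summed counts of the large subunit were 1.61, 1.72, 1.65 and 1.74 times those of the small subunit in CRS, and 1.69, 1.68 and 1.72 times in noCRS. The CRS libraries held both the lowest and the highest of these ratios, and the noCRS libraries lay between them. The mean ratios were 1.68 ± 0.060 in CRS and 1.69 ± 0.023 in noCRS, which is a log2 difference of -0.013. This ratio is taken within a library and does not depend on how libraries are scaled.

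**Figure D1:**
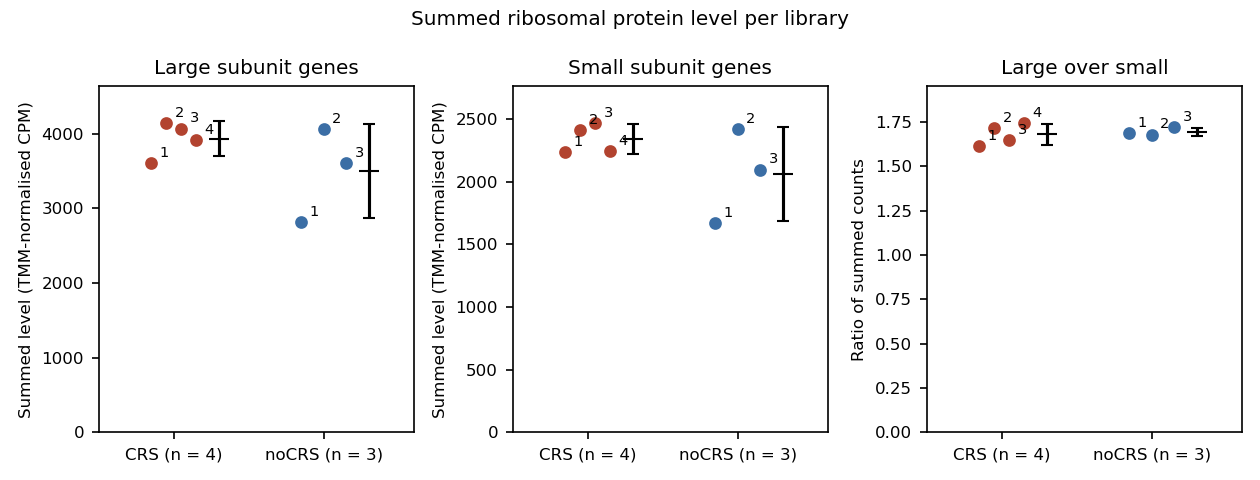
Summed level of the large subunit genes, of the small subunit genes, and their ratio of counts, for each CRS library (red) and noCRS library (blue), with the library number beside each point and the mean and SD at the right of each group. The CRS points lie within the range of the noCRS points or close to it, noCRS-1 is lowest in both sums at 2819 and 1672 CPM, and the ratios all lie between 1.61 and 1.74.

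Over the 88 tested members the median log2 fold change was 0.20, beside -0.02 over all tested genes, and 64 of 88 members, or 72.7%, had a positive one, against 49.2% of all genes. The large subunit had a median of 0.19, with 38 of 52 positive, and the small subunit a median of 0.20, with 26 of 36 positive. This count rests on 1 library and on the scaling. Without noCRS-1, 50 of 89 members, or 56.2%, were positive, and the members' median was 0.05 beside 0.05 over all genes. Without noCRS-2, 77 of 88 were positive and the median was 0.32. With library totals in place of TMM factors, the median of all genes moved to -0.17, the members' median was 0.03 and 49 of 88 were positive, and the members then stood 0.21 above all genes, against 0.22 with TMM. The differences between the sums were 15.2 CPM for the large and 28.8 CPM for the small subunit with library totals, and 135.5 and 104.3 CPM without noCRS-1. TMM factors did not overlap between the groups, with means of 0.955 in CRS and 1.065 in noCRS.

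The library noCRS-1 was low across the family. It was the lowest of the 3 noCRS libraries in 74 of 88 members, 46 of 52 in the large and 28 of 36 in the small subunit. This is 84.1% of the members, beside 36.4% of all tested genes and 44.9% of 78 mitochondrial ribosomal protein genes. It was the lowest of all 7 libraries in 62 members, or 70.5%, beside 20.1% of all tested genes. For each gene, the mean log2(CPM + 0.5) of the other noCRS libraries was subtracted from the log2(CPM + 0.5) of noCRS-1. The median difference was -0.46 over members, -0.49 in the large and -0.39 in the small subunit, and 0.04 over all genes. By exon length, all genes of up to 1000 bases had a median of -0.13, those of over 1000 to 2000 bases 0.00, those of over 2000 to 4000 bases 0.06 and longer ones 0.11. The members in these 4 classes had medians of -0.37 (18 genes), -0.51 (35 genes), -0.45 (29 genes) and -0.43 (6 genes), so that they lay under all genes of like length in each class.

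**Figure D2:**
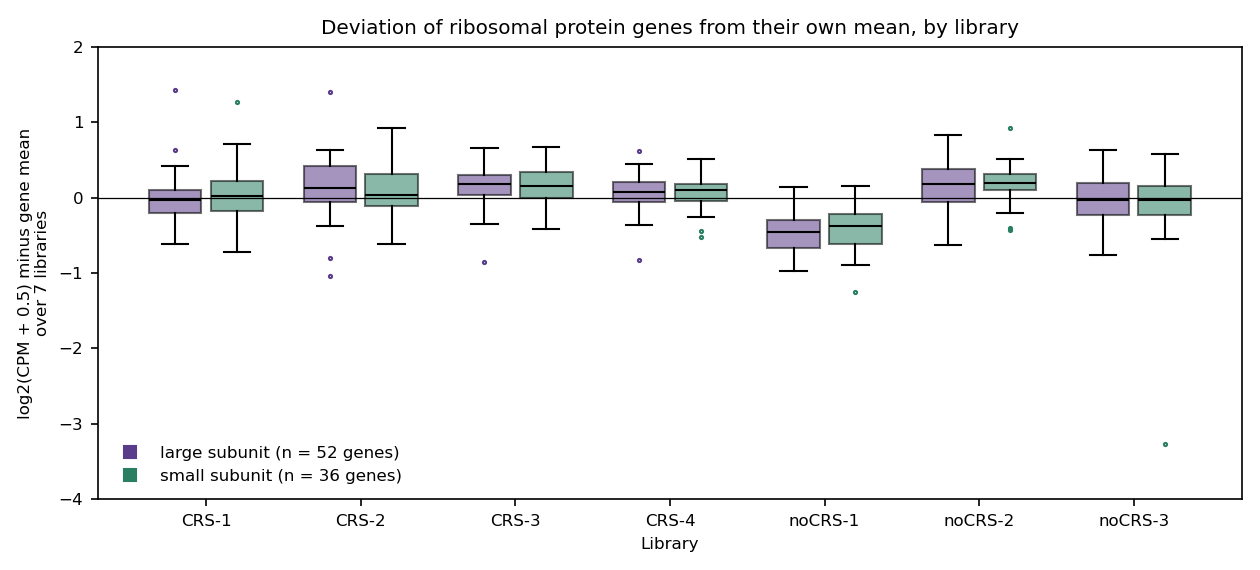
Deviation of each tested member's log2(CPM + 0.5) from its own mean over the 7 libraries, by library and subunit. Boxes span the quartiles with the median as a line, whiskers reach the farthest gene within 1.5 times the box, and points are genes beyond that. The boxes of noCRS-1 lie below 0 in both subunits, those of the other 6 libraries lie around 0, and the point at the bottom of noCRS-3 is Rps4l, which had 0 counts there.

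Among the small subunit genes, Rps3 had the smallest p. Rps3 encodes a protein at the mRNA entry channel that has also been tied to DNA repair, and its gene lies at chr7:99477896-99483738 on the minus strand of GRCm38, the build of all gene coordinates here. It had 266, 269, 265 and 227 CPM in CRS libraries, against 153, 185 and 163 CPM in noCRS libraries. Every CRS library lay above every noCRS library. The means were 257 ± 19.7 CPM in CRS (SD, n = 4) and 167 ± 16.5 CPM in noCRS (SD, n = 3, as for all means below), and the log2 fold change was 0.62 ± 0.147 (SE, as for all fold changes below; 95% interval 0.28 to 0.96), with an edgeR adjusted p of 0.0772. It also took a larger share of the summed members, 4.10% ± 0.351 in CRS and 3.04% ± 0.319 in noCRS, again without overlap. The 50-base words of a gene were taken from its protein-coding transcripts, or from all its transcripts where none is coding. Of those of Rps3, 2.8% occur in another gene. Without noCRS-1 its log2 fold change was 0.58 (edgeR adjusted p = 0.208), and with library totals it was 0.46 (edgeR adjusted p = 0.205).

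Rps6, the substrate of the S6 kinases downstream of mTOR, had 97.6, 164, 112 and 124 CPM in CRS and 76.8, 123 and 95.7 CPM in noCRS. The groups overlapped and the log2 fold change was 0.34 ± 0.242 (edgeR adjusted p = 0.678). It was 0.16 without CRS-2 and 0.53 without noCRS-2. Rps19, a gene mutated in human Diamond-Blackfan anaemia, had 58.7 ± 7.56 CPM in CRS and 47.0 ± 12.1 CPM in noCRS, a log2 fold change of 0.32. Rps9 had 138 ± 15.5 CPM in CRS and 115 ± 30.8 CPM in noCRS, a log2 fold change of 0.26. Neither passed, at edgeR adjusted p of 0.71 for Rps19 and 0.725 for Rps9. Without noCRS-2 the log2 fold changes were 0.54 for Rps19 and 0.51 for Rps9, and without noCRS-3 both were 0.17. Without noCRS-1 or CRS-3 that of Rps9 was 0.16.

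Among small subunit genes with a negative fold change, Rps27l, Rps27, Rps19bp1 and Rps3a3 did not pass either. Rps27l had 76.8 ± 11.1 CPM in CRS and 90.6 ± 23.9 CPM in noCRS, and Rps27 had 42.5 ± 7.60 CPM in CRS and 49.3 ± 15.98 CPM in noCRS. Rps19bp1, which fits the name rule but encodes a protein that binds Rps19 and is no ribosomal subunit, had 36.5 ± 6.26 CPM in CRS and 41.9 ± 5.24 CPM in noCRS. Rps3a3, annotated as a processed pseudogene, reached at most 1.35 CPM in 1 library. The lowest edgeR adjusted p of these 4 was 0.806. Single libraries moved these values: the log2 fold change of Rps27l was -0.24, and -0.43 without noCRS-1 but -0.12 without noCRS-2 or noCRS-3. That of Rps27 was -0.22, and -0.44 without noCRS-1 but 0.00065 without noCRS-2.

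**Figure D3:**
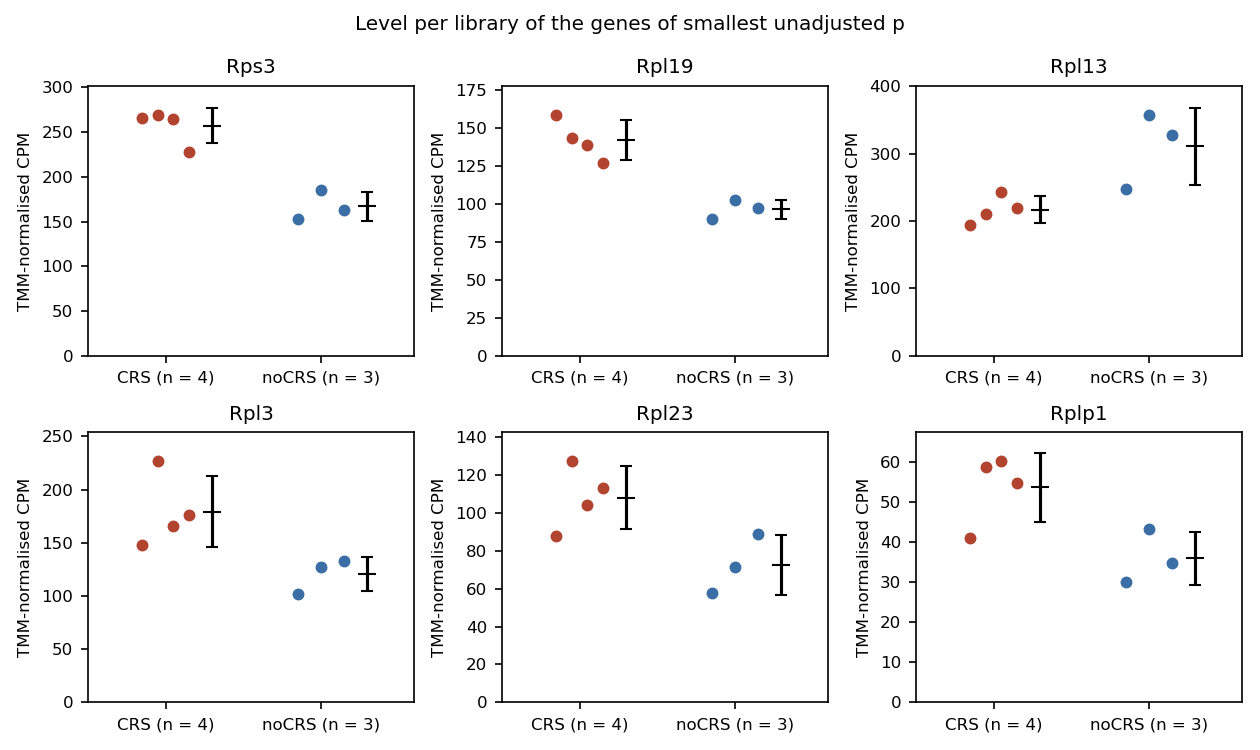
Level in each CRS library (red) and noCRS library (blue) of the 6 members with the smallest unadjusted p, with the mean and SD at the right of each group. Rps3, Rpl19 and Rpl3 lie higher in all 4 CRS libraries, Rpl13 lies lower in all 4, and Rpl23 and Rplp1 overlap; none of the 6 passed at an adjusted p under 0.05.

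In the large subunit, Rpl19 and Rpl3 were the non-overlapping members with the smallest p and higher CRS levels. Rpl19 forms a bridge between the subunits and lies at chr11:98026710-98030492 on the plus strand. It had 158, 143, 138 and 127 CPM in CRS, against 90.0, 102 and 96.9 CPM in noCRS. The lowest CRS library lay above the highest noCRS library. The means were 142 ± 13.1 CPM in CRS and 96.4 ± 6.11 CPM in noCRS, a log2 fold change of 0.56 ± 0.158 (95% interval 0.20 to 0.92) at an edgeR adjusted p of 0.139. Of its 50-base words, 73.9% occur in another gene, and 11.4% of its exon length overlaps one, so that its counts are less certain than those of Rps3. Rpl3, whose protein reaches close to the site of peptide bond formation, had 148, 227, 166 and 177 CPM in CRS and 102, 127 and 132 CPM in noCRS. Its log2 fold change was 0.57 ± 0.194 at an edgeR adjusted p of 0.209, and 67.1% of its words are shared.

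Rpl13 went the other way. It lies at chr8:123102350-123105244 on the plus strand and was the second most abundant member. It had 195, 211, 243 and 219 CPM in CRS, against 247, 357 and 328 CPM in noCRS. The highest CRS library lay just under the lowest noCRS library, and that one, noCRS-1, was low across the family. The means were 217 ± 20.0 CPM in CRS and 311 ± 57.3 CPM in noCRS, a log2 fold change of -0.52 ± 0.170 (95% interval -0.91 to -0.13) at an edgeR adjusted p of 0.197. Without noCRS-1 the log2 fold change was -0.65 (edgeR adjusted p = 0.145). As a share of the summed members, which does not depend on library scaling, Rpl13 held 3.33%, 3.22%, 3.71% and 3.55% in CRS, against 5.50%, 5.51% and 5.75% in noCRS. In this measure noCRS-1 lay with the other noCRS libraries, and the gap between the groups was wider than the range within either. Of the 50-base words of its protein-coding transcripts, 80.3% are shared. Snord68 and Mir7079 overlap 6.0% of its exon length, on a library type that does not mark strand. The 15 annotated pseudogenes that share 50-base words with it more than with any other member had 1602 counts together, 2.63% of its own.

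The stalk proteins, which bring elongation factors to the ribosome, had higher means in CRS without passing. Rplp1 had 41.1, 58.7, 60.2 and 54.7 CPM in CRS and 30.1, 43.2 and 34.7 CPM in noCRS. CRS-1 lay under noCRS-2, and the log2 fold change was 0.58 ± 0.249 (edgeR adjusted p = 0.361). Rplp0, the base of the stalk, had 148, 183, 181 and 140 CPM in CRS and 98.5, 140.3 and 141 CPM in noCRS, a log2 fold change of 0.37. Rplp2 had 44.2, 52.2, 48.7 and 44.8 CPM in CRS and 23.8, 57.0 and 33.0 CPM in noCRS, a log2 fold change of 0.32. The noCRS libraries lay on both sides of all CRS libraries in Rplp2, and its log2 fold change was 0.094 without noCRS-1 and 0.74 without noCRS-2. That of Rplp0 was 0.23 without noCRS-1. Rplp0 and Rplp2 had edgeR adjusted p of 0.499 and 0.806. Both were named here for their role, with their values known, as were Rpl5, Rpl11 and Rpl41.

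Rpl5, Rpl11 and Rpl23 can bind Mdm2, the ligase of p53, when ribosome assembly fails. Rpl23 had 87.6, 127, 104 and 113 CPM in CRS and 57.5, 71.3 and 88.8 CPM in noCRS. The groups overlapped only by CRS-1 and noCRS-3, and the log2 fold change was 0.57 ± 0.218 (edgeR adjusted p = 0.274). Rpl5 had 84.8, 141, 120 and 101 CPM in CRS and 71.7, 93.0 and 89.7 CPM in noCRS, a log2 fold change of 0.39 ± 0.219 (edgeR adjusted p = 0.529), or 0.25 without CRS-2. Rpl11 had 46.2, 41.6, 34.6 and 32.1 CPM in CRS and 28.0, 43.7 and 42.6 CPM in noCRS. Its means were alike, 38.6 ± 6.43 CPM in CRS and 38.1 ± 8.79 CPM in noCRS, and the 95% interval of its log2 fold change, -0.61 to 0.64, leaves room for a difference in either direction. The sign of this value changed with the scaling and with single libraries left out.

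Rpl4, whose protein lines the exit tunnel of the growing chain, was the most abundant member. It had 347, 311, 324 and 385 CPM in CRS and 293, 301 and 254 CPM in noCRS. The groups did not overlap, and the log2 fold change was 0.27 ± 0.145 (edgeR adjusted p = 0.497). Rpl15 had 95.2, 120, 108 and 100.01 CPM in CRS and 74.0, 89.8 and 78.9 CPM in noCRS, and Rpl41, the smallest ribosomal protein, had 81.9, 80.2, 87.1 and 105 CPM in CRS and 56.5, 76.0 and 64.4 CPM in noCRS. Neither overlapped between the groups, with log2 fold changes of 0.38 and 0.43 and edgeR adjusted p of 0.381 and 0.382. After Rpl13, the large subunit genes with a negative fold change and the smallest p were Rpl7l1, Rpl6l, Rpl30 and Rpl37. Rpl7l1, a paralog of Rpl7, had 94.4, 45.2, 82.9 and 113 CPM in CRS and 103, 131 and 117 CPM in noCRS. CRS-2 was the lowest library by far, and the log2 fold change was -0.48 ± 0.294 (edgeR adjusted p = 0.591), or -0.29 without it. Rpl30 had a log2 fold change of -0.23, and 0.012 without noCRS-2. Rpl37 had one of -0.20, which was -0.42 without CRS-2 and -0.054 without noCRS-3. Rpl6l, a processed pseudogene in the annotation, reached at most 1.32 CPM.

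**Figure D4:**
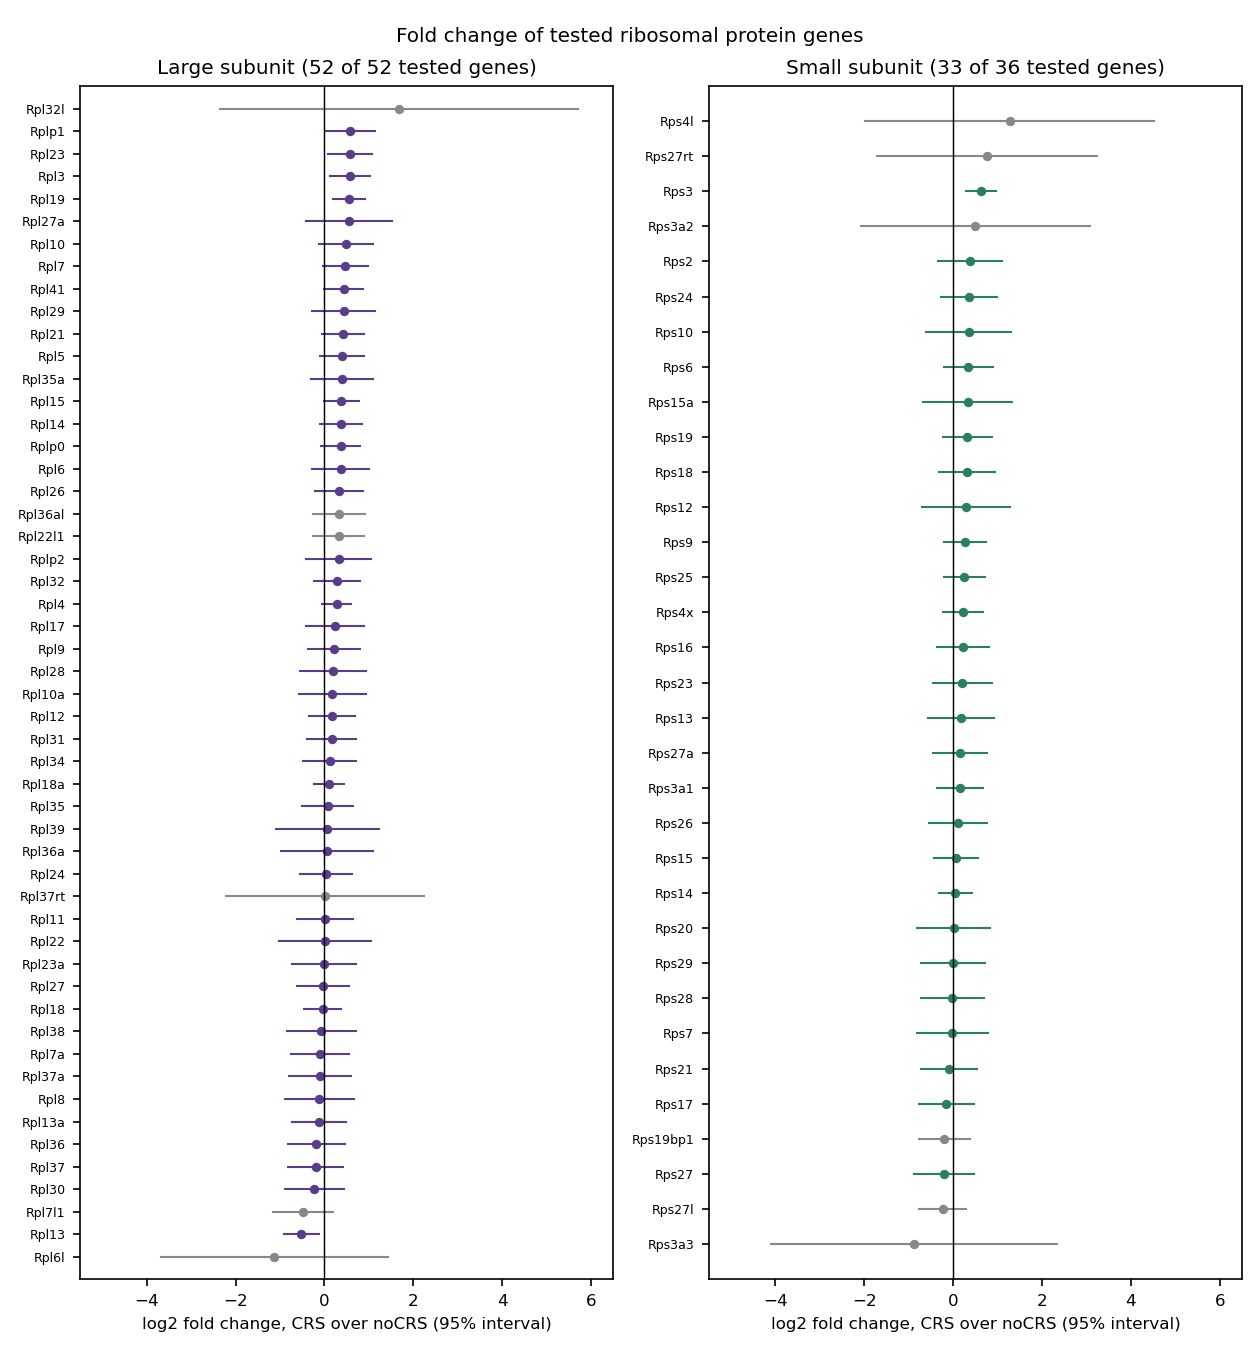
Log2 fold change of CRS over noCRS with its 95% interval for 52 of 52 tested members of the large subunit and 33 of 36 of the small subunit, large subunit at the left and small subunit at the right, sorted by value. Grey marks members named as copies or paralogs, and Rps19bp1. The points of the other members lie between -0.52 and 0.62, and the widest intervals belong to copies with few counts.

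Leaving out the 16 members named as copies or paralogs and Rps19bp1, 76 members had log2 fold changes from -0.52 to 0.62, and in 60 of them the 95% interval lay wholly within a 2-fold change in either direction. Their standard error had a median of 0.27 on the log2 scale. The spread of log2 CPM within groups had a median SD of 0.33 over tested members, beside 0.64 over all tested genes. Among genes of at least 10 CPM it was 0.33 over 81 members, beside 0.45 over 9972 genes. The order of the 76 levels was nearly the same in both groups, with a Spearman rho of 0.958 and a Pearson r of 0.968 between their log2 mean CPM in CRS and in noCRS. These are correlations across genes of the same libraries, which are no independent replicates.

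Levels differed widely among genes whose proteins the ribosome holds mostly in equal number. Mean CPM over the 76 ran from 13.9 in Rps12 to 316 in Rpl4, with a median of 61.1. Per kilobase of exon the range was 43.0-fold, from 3.67 CPM per kilobase in Rps15a to 158 in Rpl4. Exon length here covers all annotated exons of a gene, 6270 bases in Rps15a, so this range also depends on the lengths used. Rpl19 had 120, Rps15 had 108 and Rpl24 had 100.2 CPM per kilobase. Rps27l, a paralog, reached 101 CPM per kilobase. Rpl24 overlaps another gene in 47.0% of its exon length, so that its level is uncertain. The 10 most abundant members held 29.7% of the summed members, led by Rpl4 with 5.36%, Rpl13 with 4.37% and Rps3 with 3.65%. The median over all 88 tested members was 35.0 CPM per kilobase, beside 3.61 over all tested genes, and 82 of the 88 lay above that.

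Per kilobase, members with a longer annotated exon length had lower levels, with a Pearson r of -0.622 and a Spearman rho of -0.601 between the log2 values. Exon length also divides the level here, and the plain log2 CPM had an r of 0.086 with it. In 27 of the 76 members over 50% of the 50-base words occur in another gene. The 16 members with up to 25% shared words had a median of 23.2 CPM per kilobase, the 33 with over 25% to 50% had 35.9, the 16 with over 50% to 75% had 37.0 and the 11 with over 75% had 71.4. Per kilobase, the members with much shared sequence were thus not lower as a class. This measure also falls with exon length, and whether multiply aligned reads were lost was not tested. The median log2 fold changes in these 4 classes were 0.24, 0.20, 0.24 and 0.04, with positive values in 14 of 16, 23 of 33, 14 of 16 and 6 of 11. Features named as -ps pseudogenes of members had counts that came to 0.80% to 1.33% of the members' own in each library. A wider set, 1027 annotated pseudogenes that share 50-base words with a member, had 50224 counts over all libraries, or 3.56% of the members' own. Per member this share was over 10% in 6, Rps3a2, Rpl29 (46.2%), Rps2 (24.2%), Rpl7l1 (13.9%), Rpl22l1 (12.5%) and Rpl27 (11.1%), which are named for this value.

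**Figure D5:**
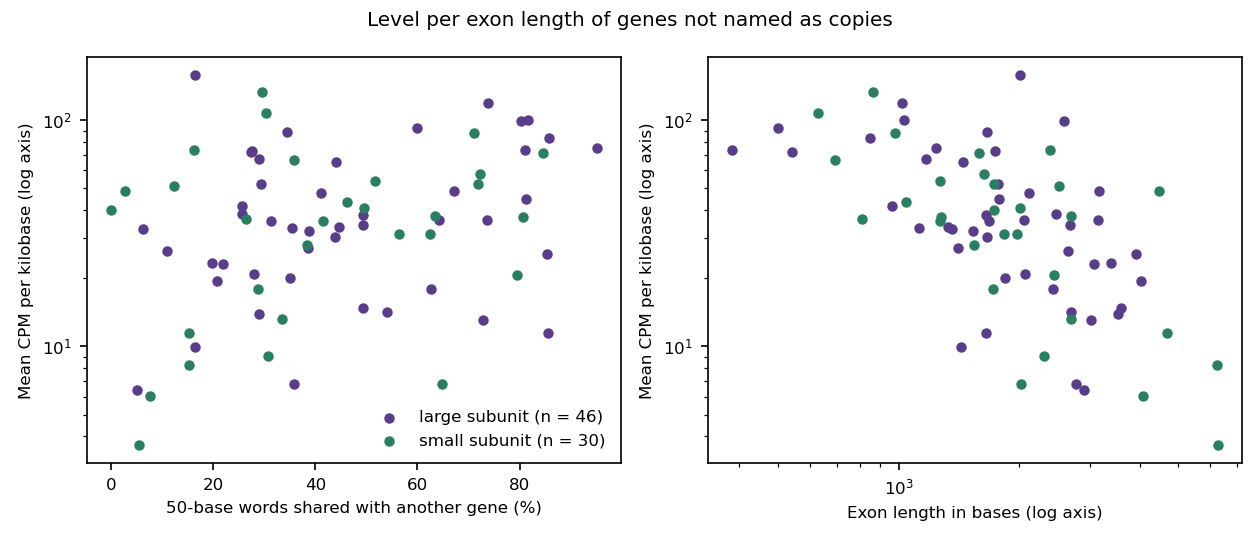
Mean CPM per kilobase of exon over the 7 libraries for the 76 tested members not named as copies, against the percentage of 50-base words shared with another gene (left) and against exon length in bases (right), on log axes where marked. Levels run from 3.67 to 158 CPM per kilobase, members with over 75% shared words are not among the lowest as a class (median 71.4), and levels per kilobase are lower at greater exon length.

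Several paralogs stood above the gene they are named after per kilobase of annotated exon. Rpl22l1 had 40.3 CPM per kilobase in CRS and 32.2 in noCRS, while Rpl22 had 6.42 in CRS and 6.34 in noCRS. Rps27l had 94.2 CPM per kilobase in CRS and 111 in noCRS, and Rps27 had 40.7 in CRS and 47.3 in noCRS. Rpl36al had 33.2 in CRS and 26.5 in noCRS, and Rpl36a had 11.7 in CRS and 11.2 in noCRS. Rpl36a has 1655 bases of exon but 434 different 50-base words in its coding transcripts, and Rpl36al has 1353 and 1383. Their order thus depends on the length used. Of these words, 85.5% are shared in Rpl36a and 22.1% in Rpl36al. None of these 3 pairs changed order between the groups. Rpl7l1 did, with 24.0 CPM per kilobase in CRS and 33.5 in noCRS, while Rpl7 had 38.9 in CRS and 28.1 in noCRS, which is 61.8% of Rpl7 in CRS and 119% in noCRS. This difference between the groups was not tested, and neither gene passed alone. Rpl7 has 2687 bases of exon but 1205 words in its coding transcripts, and Rpl7l1 has 3495 and 3142. Which gene stands higher in noCRS thus depends on the length used.

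The paralogs known from other tissues, Rpl10l, Rpl39l and Rpl3l, were at or near 0. Rpl10l and Rpl39l, which stand in for X-linked genes in the testis, had 0 counts in every library, which allows up to 0.0724 to 0.0990 CPM in 1 library. Rpl3l, the form of striated muscle, had 38 counts in CRS-4 and 0 in the other 6 libraries. Rps12l1 had 1 count each in CRS-3 and noCRS-1, and Rps23rg1 had 4, 7, 12 and 4 counts in CRS and 2, 9 and 4 counts in noCRS. Rps4l, a transcribed processed pseudogene in the annotation, had 11.2, 8.21, 5.61 and 6.44 CPM in CRS, against 4.41, 5.36 and 0 CPM in noCRS. The groups did not overlap, but its edgeR adjusted p was 0.84 with a standard error of 1.42 on the log2 scale.

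How close copies can be is seen in Rps27 and Rps27rt, whose first 30 bases on GRCm38.p6 share an unbroken run of 29, printed in capitals. Rps27 starts at chr3:90213619-90213648 and Rps27rt at chr9:114982710-114982739, both on the minus strand.
Rps27: cCTTTCCGGCGGTGACGACCTCCCTACGAG
Rps27rt: CTTTCCGGCGGTGACGACCTCCCTACGAGa
Of the 50-base words of Rps27rt, 91.1% occur in another gene. It was counted at 2.37 CPM per kilobase in CRS and 1.39 in noCRS, beside 40.7 in CRS and 47.3 in noCRS for Rps27, and reads of such pairs cannot be told apart with certainty.

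Other genes of translation gave 1 call among 180 tested, against 2.30% of all genes. Rheb, the small GTPase that switches on mTOR, rose in CRS, with 504, 715, 602 and 532 CPM against 227, 266 and 299 CPM in noCRS. The means were 588 ± 94.2 CPM in CRS and 264 ± 36.1 CPM in noCRS, a log2 fold change of 1.16 ± 0.179 at an edgeR adjusted p of 0.0176. The call was lost when any 1 of the noCRS libraries or CRS-3 was left out, with adjusted p of up to 0.0946, and with the replicate number as a block (edgeR adjusted p = 0.117). At an unadjusted p under 0.05 there were 22 higher and 1 lower among the 180, beside 9.67% and 3.91% of all genes. DESeq2 called 16 of them, beside 9.14% of all genes, which is close to that background. Positive fold changes made up 71.7%, with a median of 0.19, close to those of the ribosomal proteins.

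The medians of these lists ran from 0.12 to 0.37, beside -0.02 over all tested genes. Of all tested genes 49.2% were positive, and at an unadjusted p under 0.05 in edgeR's test 9.67% were higher and 3.91% lower. The 4 ribosomal proteins outside the name rule, Rpsa, Fau and Rack1 among them, had fold changes above 0 in 4 of 4 cases (median 0.25), with none past the threshold. Of 30 initiation factors 22 were positive (median 0.30, 6 at an unadjusted p under 0.05, all higher), and the cap-binding protein Eif4e had 293 CPM in CRS and 157 CPM in noCRS at an edgeR adjusted p of 0.0782. Of 31 ribosome biogenesis genes 24 were positive (median 0.37, 6 at an unadjusted p under 0.05, all higher), among them Nhp2, a protein of the rRNA-modifying particles, with 72.7 CPM in CRS and 36.1 CPM in noCRS. Of 15 elongation factors and other TOP genes 10 were positive (median 0.12, 3 higher and 1 lower at an unadjusted p under 0.05). The elongation factor subunit Eef1d was that 1, with 70.3 CPM in CRS and 104 CPM in noCRS. Of 22 genes that control ribosomal protein synthesis 15 were positive (median 0.27), and of 78 mitochondrial ribosomal protein genes 54 (median 0.15, 4 at an unadjusted p under 0.05, all higher). No test of a list was made, and the neuronal and precursor markers above differed between the same libraries.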

How the data were processed

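Raw counts per gene were deposited by the authors as whole numbers in 1 table of 55367 genes with exon coordinates, 4 CRS and 3 noCRS libraries. Per the submitters' processing notes, FastQC, HISAT, HISAT2, featureCounts, DESeq2 and the build GRCm38 were used. The table's column names look like those that another aligner, STAR, writes by default, and versions and the handling of multiply aligned reads are not given in the sources used here. Per the labels' protocols, the library kit was TruePrep DNA Library Prep Kit V2, which uses a transposase and keeps no strand.

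All genes were fitted together with edgeR 4.0.16 in R 4.3.3 (CRS over noCRS with no other term, TMM factors, filterByExpr as it stands, quasi-likelihood test), and p-values were adjusted by Benjamini-Hochberg over 17833 genes, with a threshold of 0.05. The filter removed 5 members. The common biological coefficient of variation was 0.919. Sums and medians over members carry no p. Intervals cover the error of the fitted model, which takes in the spread among libraries of a group. Floors cover counting error only, and reads carry no molecular identifiers. The fit was tested on simulated data.

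Members and lists were chosen with earlier results of these data known. Named members were those past the threshold (none), in each subunit the 5 of smallest p in each direction and the 3 highest per exon length, and paralogs with their parents, plus 2 genes of smallest p per other list. Results of a few such genes are not reported here, though counts, sums and medians include them. Of 93 members, 92 matched GENCODE M21 by symbol, 85 of them protein coding, 40 share exon sequence with another gene and 18 over 10% of exon length. Alternatives were DESeq2 1.42.0, limma-voom (limma 3.58.1), 2 other filters on low counts, 3 other scalings, leaving out genes of the mitochondrial genome and of rRNA, pseudogene counts added to members, the replicate number as a block and each library left out. Adding the pseudogenes that share sequence with a member, rather than those named after one, was chosen after seeing the data.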

Additional observations from a re-analysis of the deposited data

Results flagged for a closer look

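Of 57 sets of 4 CRS values examined for named genes and sums, 4 had 1 library far from the other 3. The sets come from the same 4 libraries and are not independent, so that this count is not set against a rate by chance. Rps3 had 227.4 CPM in CRS-4 and 265 to 269 CPM in the others. Rps9 had 162 CPM in CRS-3 and 129 to 132 CPM in the others. Rpl3l had 0.990 CPM in CRS-4 and 0 in the others, so that any count would have set it apart. Tpt1, which encodes a TOP-regulated protein of growth control, had 190 CPM in CRS-2 and 220 to 224 CPM in the others. Leaving out each library in turn kept the log2 fold change of Rps3 between 0.58 and 0.70 and that of Rps9 between 0.16 and 0.51.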

How the results depend on the processing

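Of 957 values recomputed for 54 named genes, 896 kept their direction and their side of the threshold. Among the members, 3 of 753 such values passed the threshold, all by DESeq2, which called 3 members (Rps3, Rpl19 and Rpl13). Leaving out each library called 0 to 0 members. Over these fits the sums differed by 135.5 to 707 CPM in the large and 104.3 to 449 CPM in the small subunit. The log2 difference of the large over small ratio ran from -0.03 to 0.01. The median log2 fold change ran from 0.07 to 0.33 in the large and from 0.05 to 0.30 in the small subunit. With library totals the sums of the large and small subunit differed by 15.2 and 28.8 CPM, and the medians were 0.02 and 0.04. For the other translation genes, the 1 call became 16 by DESeq2, 4 by limma-voom and 0 with the replicate block, and ran from 0 to 1 over libraries left out; the cause was not tested.

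Among the 42 named members tested, 11 turned sign under at least 1 setting, and none of these passed the threshold. Over all 88 tested members, the number with a positive fold change went down to 49 with library totals, against 64, so that more members turned than are named here. Log2 fold changes with library totals were -0.13 for Rpl24, -0.10 for Rps15, -0.10 for Rpl39, -0.10 for Rpl36a, -0.14 for Rpl22, -0.0030 for Rps27a and -0.14 for Rpl11. With upper quartile factors they were -0.020 for Rpl24, -0.043 for Rpl22 and -0.045 for Rpl11, and with median-ratio size factors -0.023 for Rpl22 and -0.011 for Rpl11. With a filter of 1 CPM in 3 libraries Rpl22 had -0.0015 and Rpl11 -0.0045. With pseudogene counts added Rpl11 had -0.030. With limma-voom Rps15 had -0.071 and Rpl11 -0.12, and DESeq2 gave -0.016 for Rpl22. Leaving out each library gave ranges of -0.40 to 0.012 for Rpl30, -0.12 to 0.24 for Rpl24, -0.44 to 0.00065 for Rps27, -0.054 to 0.13 for Rps15, -0.30 to 0.060 for Rpl7a, -0.23 to 0.31 for Rpl39, -0.21 to 0.58 for Rpl36a, -0.26 to 0.21 for Rpl22, -0.042 to 0.29 for Rps27a, -0.10 to 0.38 for Rpl10a and -0.15 to 0.13 for Rpl11.

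Whether the replicate numbers pair the libraries could not be settled. Same-numbered libraries correlated at 0.019, 0.0095 and 0.026 in their deviations from the group means, all under 0.1. The libraries noCRS-1 and noCRS-2 correlated best with CRS-4, and noCRS-3 with CRS-3. Correlations this small neither show nor exclude a pairing. With the replicate number as a block, which leaves CRS-4 without a partner, 12 genes of all 17833 were called against 410 without it, 0 members were called, and the medians were 0.23 in the large and 0.24 in the small subunit. In that fit Rpl24 had a log2 fold change of -3.065e-05 and Rpl22 one of -0.31.

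A group of 3 libraries with a family-wide low one limits what can be said of small differences: the median 95% interval of a member spans 0.62 on the log2 scale to either side of its value. Counts of members with copies depend on how multiply aligned reads were treated.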
